A study of Macaca mulatta with 26 samples.

Results

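CircRNAs of skeletal muscle were compared between 3 infant and 3 juvenile rhesus monkeys, which gave 6 of the 26 libraries of the series. Members were chosen by age and sequencing depth alone: from the libraries sequenced to about 20000000 reads, the infant group took those at 0.003, 0.005 and 0.03 years (about 1.1, 1.8 and 11 days), and the juvenile group those at 2.8, 4.06 and 6 years. Each library came from the vastus lateralis, a thigh muscle, of 1 monkey. All animals received a normal diet ad libitum, and all RNA was digested with RNase R, an exonuclease that degrades linear RNA. The labels give neither sex nor genotype, and they put all 6 animals in a single young class. Since rhesus monkeys are usually sexually mature at 6 years, "juvenile" serves here as a working name. From each library the number of reads that cross each back-splice junction was taken, that is, the point where the end of a downstream exon is joined to the start of an upstream one.

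CircRNAs arise when the spliceosome joins a downstream splice donor to an upstream acceptor, so that 1 or more exons of a pre-mRNA close into a ring. Lacking free ends, such rings resist exonucleases and can persist for long times in cells that divide little, such as muscle fibers. A second kind, the circular intronic RNA, is the remainder of an intron lariat that escaped debranching and trimming. Muscle of the newborn is still growing and exchanging developmental for adult forms of its contractile proteins, in part through changes of splicing.

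The 6 libraries held between 1996 and 7918 junction reads, so that 3 reads, the smallest number taken to mark a detectable share, stood for 0.0379% to 0.15% of a library. The infant libraries had 2933, 6203 and 7918 reads in order of age, and the juvenile libraries 6227, 1996 and 2331. Of 8253 junctions with a read, 832 reached 6 reads over the 6 libraries, and these held 59.2% of the reads. Of the 832, 103 were read in all 6 libraries and 25 in a single one. A junction not listed for a library was given 0, although it may have had reads that were not called. For comparison, 18 libraries of monkeys aged 11.3 to 40.9 years held 822 to 11561 reads, and in-depth libraries of about 100000000 reads came from a 0.005-year-old and a 40.1-year-old monkey. The in-depth infant has the same age as 1 infant library and may be the same animal, so it is no independent sample. Whole muscle was used, and fewer cells of a type cannot be told apart from less RNA per cell.

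Few circRNAs separated infant from juvenile muscle when junctions were tested singly. With edgeR's quasi-likelihood test and Benjamini-Hochberg adjustment, 0 of 832 junctions (0%) were higher in infants and 2 (0.24%) were lower. At an unadjusted p under 0.05, 79 junctions (9.5%) were higher and 34 (4.09%) lower, and DESeq2 made 0 calls in either direction, with 7 higher and 6 lower at an unadjusted p under 0.05. The median log2 fold change of all junctions was 0.50, and 548 of the 832 lay above 0, so that 0 was not the middle of the distribution. With 12 or more reads required, 383 junctions were tested and the median was 0.22, while without a filter it was 1.69. Of the 383, 21 were higher and 20 lower in infants at an unadjusted p under 0.05 by edgeR's test. The excess of infant-high junctions thus depends on the read filter. Under other scalings the median of the 832 junctions ranged from 0.27 with total reads to 0.88 without scaling. Differences from the median are therefore given for the 2 called junctions below, while log2 fold changes of other junctions are given as fitted. The median standard error was 1.51 on the log2 scale, so that only large differences could be detected at this depth. The infant libraries lay above all juvenile libraries, in reads per 1000 junction reads, for 85 junctions (10.2%), and the juvenile above all infant libraries for 41 (4.93%).

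**Figure D1:**
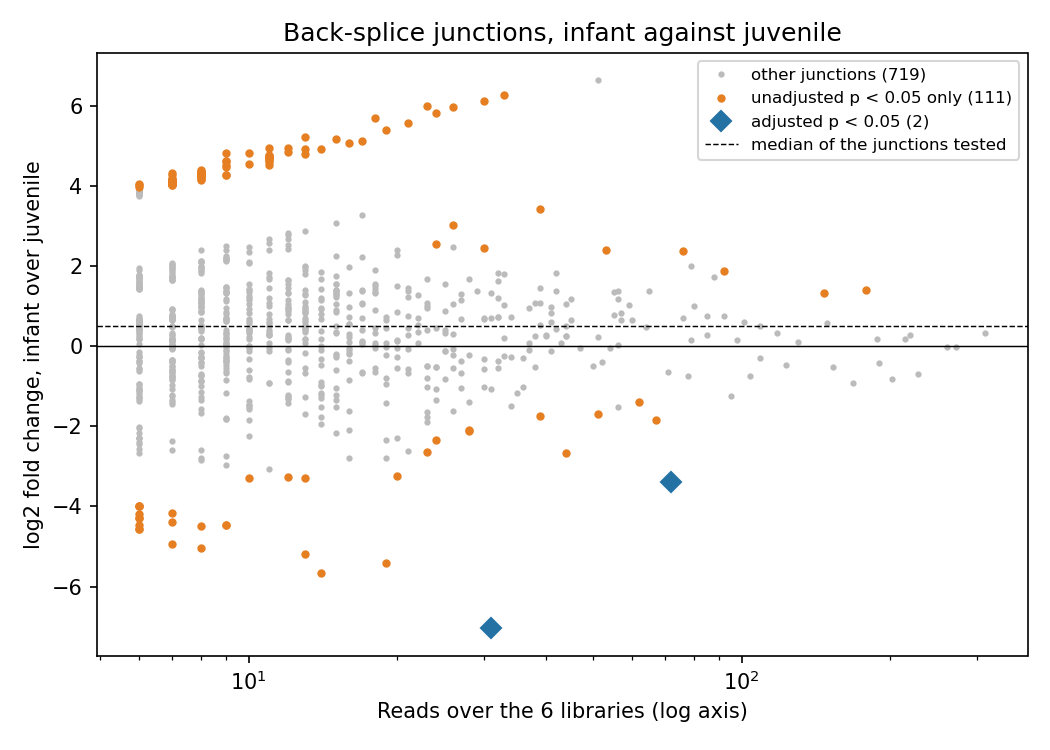
Each point is 1 of the 832 junctions, with its reads over the 6 libraries on the x axis (log scale) and the log2 fold change of infant over juvenile on the y axis. The solid line marks 0 and the dashed line the median of 0.50, and both diamonds, the junctions with an adjusted p under 0.05, lie far below the lines.

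When overlapping junctions on 1 strand were summed to loci, 1 of 946 loci (0.106%) was higher and 1 (0.106%) lower in infants, with 52 (5.5%) and 30 (3.17%) at an unadjusted p under 0.05. The infants lay above all juveniles in 79 loci (8.35%) and the juveniles above all infants in 55 (5.81%). The higher one lay on the plus strand of chr7:164239377-164283671 (rheMac2), a region of 44295 bp. It gave 53, 65 and 9 reads in the infant libraries in order of age and 0 in each juvenile library. All infant libraries thus lay above all juvenile libraries, the 11-day-old being by far the lowest of the infants. As shares of the junction reads, these were 1.81% (95% exact interval 1.36 to 2.36), 1.05% (0.81 to 1.33) and 0.114% (0.052 to 0.216), or 9.9 ± 8.48 reads per 1000 (SD, n = 3). The share in infants was at least 26.2-fold higher than in juveniles, taking 3 reads over the juvenile group as the limit, and the log2 fold change was 8.42 (SE 1.08, adjusted p = 3.27e-11, edgeR quasi-likelihood, Benjamini-Hochberg), or 8.06 above the median locus. DESeq2 gave an adjusted p of 0.0186. For most loci edgeR used a spread pooled over loci, so p-values of this size rest on that spread more than on the 3 animals of a group. When only loci with 12 or more reads were tested, the adjusted p was 0.318, so the call depends on that filter.

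The same locus was at 0 in the older animals. None of the 18 older libraries listed a read, and 0 of their 71475 reads allows a share of up to 0.0042%, against 0.745% of all infant reads, at least 177-fold more. The in-depth infant library held 527 reads of the locus (0.868%, 95% exact interval 0.796 to 0.945), and the in-depth library of the 40.1-year-old monkey 0. Against the 18 older libraries, the log2 fold change was 8.27 (SE 0.75, adjusted p = 1.04e-13, edgeR quasi-likelihood, Benjamini-Hochberg), and it was the only locus of 809 (0.124%) higher in infants in that comparison, with 0 lower, and 41 higher (5.07%) and 46 lower (5.69%) at an unadjusted p under 0.05. Juveniles had 0 loci called against the older libraries, and 9 higher (1.11%) and 35 lower (4.33%) at an unadjusted p under 0.05. Both comparisons of loci with older libraries were added after the data had been seen. They took loci with 24 or more reads over the 24 libraries, and the chromosome 7 locus reached this through infant reads alone. It had already been called with the same infant libraries, so the call against older libraries is no separate evidence.

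**Figure D2:**
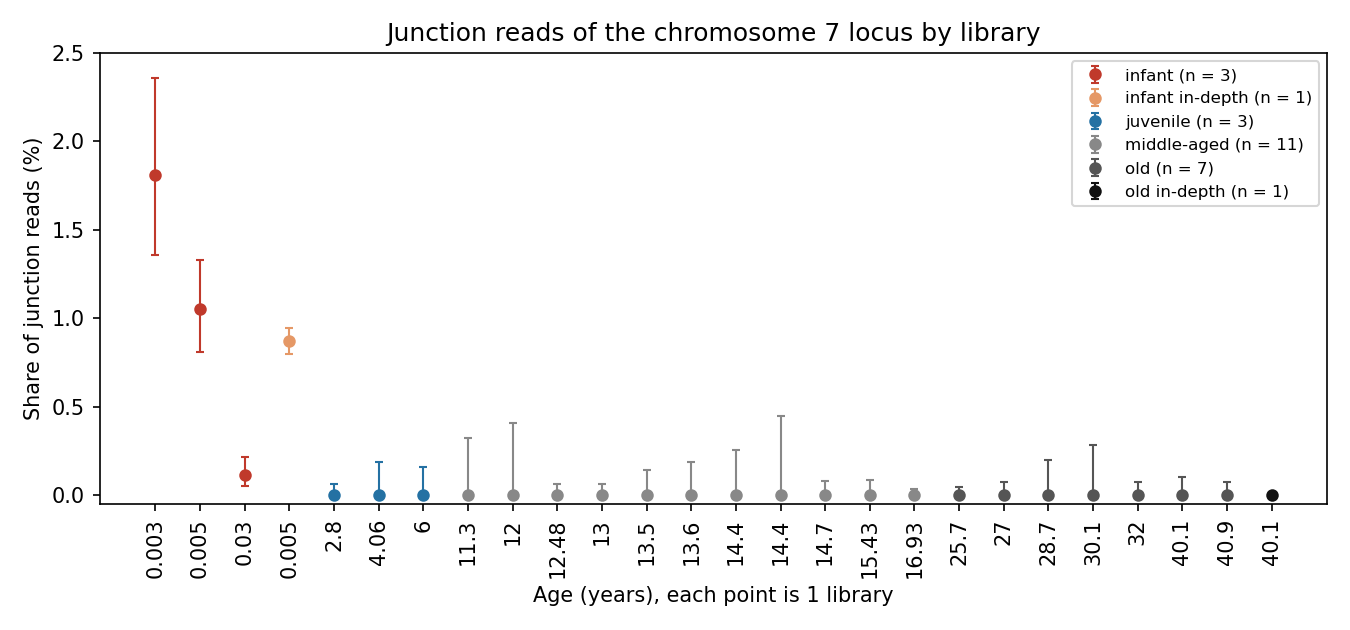
The share of junction reads (%) at the chromosome 7 locus is plotted for every library, ordered by group and age, with 95% exact intervals as bars. All infant libraries, between 0.114% and 1.81%, lie above 0, and every juvenile, middle-aged and old library is at 0.

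The locus held many circRNAs. In the whole series there were 52 junctions, of which 19 had reads in the 6 libraries and 33 had reads in the in-depth infant library alone. The 19 used 13 different starts and 8 different ends, spanned 2 to 18 exons and were 131 to 1633 nt long after splicing. Over the 52, 10 junctions shared the end at position 164262737, with 73 of the 127 reads of the 6 libraries, and 11 shared the end at 164283671, with 26. The youngest infant listed 11 of these junctions, the 1.8-day-old 15 and the 11-day-old 4, while the in-depth infant listed 47. None was listed under an Ensembl transcript, and the files do not pair the locus with a gene, so its host gene is not named.

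Of the 8 junctions of the locus with at least 6 reads, chr7:164254945-164262737 was the most read, with 12, 11 and 0 reads in the infants, 0 in each juvenile and 106 in the in-depth infant. It spanned 7 or 8 exons, and its log2 fold change of 5.99 (SE 1.70) missed the threshold (adjusted p = 0.0969, edgeR quasi-likelihood, Benjamini-Hochberg). The long circRNA at chr7:164261344-164283671, with 16 exons, had another order among the infants, with 0 reads in the youngest, 16 in the 1.8-day-old and 5 in the 11-day-old. A shorter circRNA of 5 exons, chr7:164257962-164262737, had reads in all 3 infants, namely 12, 5 and 1. Among the smallest, with 2 exons each, chr7:164261344-164262737 (166 nt) had 8, 5 and 0, and chr7:164270753-164271496 (131 or 144 nt) had 6, 4 and 0. None of these junctions passed the test singly, and the call at the locus came from their sum. The in-depth infant library listed 0 reads for chr7:164254874-164262737, which had 4 and 5 reads in the youngest infants; the cause was not tested.

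The junction with the smallest p of all was lower in infants. It lay on the plus strand of chr12:90754593-90757353 (mmu_circ_004957 and mmu_circ_004958, which differ in including 2 or 3 exons, 656 or 729 nt) and gave 0 reads in each infant library, 0 in the 2.8-year-old, 14 in the 4.06-year-old and 17 in the 6-year-old. The groups overlapped at 0, since the deepest juvenile library had no read. The level in juveniles was 4.77 ± 4.13 reads per 1000 (SD, n = 3), at least 16.7-fold above infants, and the log2 fold change was -7.04 (SE 1.35, adjusted p = 0.000658, edgeR quasi-likelihood, Benjamini-Hochberg), -7.54 from the median junction. Its locus, with 0, 0 and 0 against 0, 14 and 22 reads, was the single locus lower in infants (log2 fold change -7.21, SE 1.31, adjusted p = 0.000124 by the same test).

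This circRNA was not absent from infant muscle, however. The in-depth infant library held 252 of its reads (0.415% of that library), close to the 156 (0.443%) of the in-depth old library. Only 6 of the 18 older libraries listed it, with 167 reads in all and 86 in the highest. Against the older libraries, the log2 fold change in infants was -5.82, which did not pass the test (adjusted p = 0.325, edgeR quasi-likelihood, Benjamini-Hochberg). DESeq2 gave an adjusted p of 0.999, and without the 4.06-year-old library edgeR's adjusted p was 0.137.

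The other lower junction, chr9:69124976-69125878 on the minus strand (mmu_circ_019458), is a circRNA of a single exon of 903 nt. It had 0, 3 and 4 reads in the infants and 47, 3 and 15 in the juveniles, in order of age. Per 1000 junction reads, these were 0.33 ± 0.286 and 5.16 ± 3.22 (SD, n = 3 each), and all juvenile libraries lay above all infant libraries. The share in juveniles was 15-fold that in infants (95% counting interval 6.88 to 38.8), with a log2 fold change of -3.39 (SE 0.78, adjusted p = 0.00602, edgeR quasi-likelihood, Benjamini-Hochberg), -3.90 from the median. In the in-depth libraries it had 16 reads in the infant and 86 in the old monkey, and 15 of the 18 older libraries listed it, with 154 reads. Its locus as a whole had 0, 14 and 11 against 66, 6 and 18 reads and did not pass (log2 fold change -2.28, adjusted p = 0.0899 by the same test). Without the 2.8-year-old library, the highest, the adjusted p of the junction was 0.326, and DESeq2 gave 0.999.

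The remaining junctions with the smallest p did not pass the test (adjusted p from 0.0969 to 0.317, edgeR quasi-likelihood, Benjamini-Hochberg), and their values are given as a description. Among those with more reads in infants, some were spread evenly over the 3 animals. On chr11:54132012-54136037 (mmu_circ_003696, 3 exons, 418 nt), the infants had 7, 8 and 11 reads and the juveniles 0 each, although 13 older libraries listed 42 reads. The nearby chr11:55045847-55050896 (mmu_circ_003723) had 12, 22 and 32 reads in infants and 7, 1 and 2 in juveniles. With 3.89 ± 0.301 against 0.828 ± 0.313 reads per 1000 (SD, n = 3 each), this was a 4.08-fold difference (95% counting interval 2.09 to 8.91) with little spread within a group, and the in-depth libraries held 153 reads in the infant and 11 in the old monkey. A highly read circRNA, chr4:53822249-53875750 (mmu_circ_014028), had 20, 53 and 69 reads against 18, 10 and 9, or 8.03 ± 1.05 against 3.92 ± 1.06 per 1000. Its log2 fold change was 1.41 (SE 0.51), and in the in-depth libraries it had 320 and 52 reads. The groups did not overlap for these 3 circRNAs.

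Further infant-high patterns ranged from even ones to reads of a single animal. The circRNA at chr18:6267527-6279900 (mmu_circ_009792) had 5, 18 and 14 reads against 0, 0 and 2, an 11.4-fold share (95% counting interval 2.95 to 98.1), and its locus had 10, 32 and 22 reads against 0, 1 and 5. The locus around chr4:71769329-71771789 had 4, 12 and 13 reads against 1, 0 and 0. In both the infants lay above the juveniles. The older libraries were closer to the infants, however. There mmu_circ_009792 had 92 reads in 14 libraries, 0.129% of reads against 0.217% in infants and 0.019% in juveniles. The chr4 locus had 113 reads in 14 older libraries, 0.158% against 0.17% in infants and 0.00948% in juveniles. Per 1000 reads, mmu_circ_009792 had 2.12 ± 0.674 in infants and 0.286 ± 0.495 in juveniles (SD, n = 3 each). The chr4 locus had 1.65 ± 0.285 and 0.0535 ± 0.0927, so the spread among infants was small for both. For mmu_circ_013004 at chr3:47382252-47382535, 34 of 47 infant reads came from the 11-day-old monkey, and the juveniles had 4, 2 and 0. Reads of 3 other circRNAs came from the 1.8-day-old alone, with 30 for mmu_circ_004835, 33 for mmu_circ_006449 and 24 for chr15:25205854-25207331. Of these, mmu_circ_004835 had 0 reads in the in-depth infant and 115 in the in-depth old library, which is an order opposite to that of the comparison, whereas mmu_circ_006449 had 220 and 0.

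Among the junctions with fewer reads in infants, the most even was mmu_circ_016162 at chr6:75664580-75683702, with 7, 4 and 8 reads in infants and 16, 15 and 17 in juveniles. Per 1000 reads these were 1.35 ± 0.918 and 5.79 ± 2.79 (SD, n = 3 each), a 4.08-fold higher share in juveniles (95% counting interval 2.36 to 7.35), and the groups did not overlap. Circular intronic RNAs came next. For mmu_circ_012015 at chr20:638721-638934 (214 nt), the infants had 0 reads each and the juveniles 4, 4 and 6, at least 7.54-fold higher in juveniles, and 10 older libraries listed 78 reads. For mmu_circ_008599 at chr16:59500184-59500353, the infants had 0 and the juveniles 10, 3 and 0, with 126 reads in 12 older libraries, yet the in-depth infant had 20. For mmu_circ_006990 at chr14:9702546-9702752, the reads were 1, 1 and 4 against 33, 1 and 4, most of them from the 2.8-year-old, without which the log2 fold change was -1.18 instead of -2.66. Some exonic circRNAs had reads in a single juvenile, such as mmu_circ_020160 with 19 and the junction of mmu_circ_001685 and mmu_circ_001686 with 9, both in the 2.8-year-old, and mmu_circ_011275 with 7 in the 4.06-year-old.

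**Figure D3:**
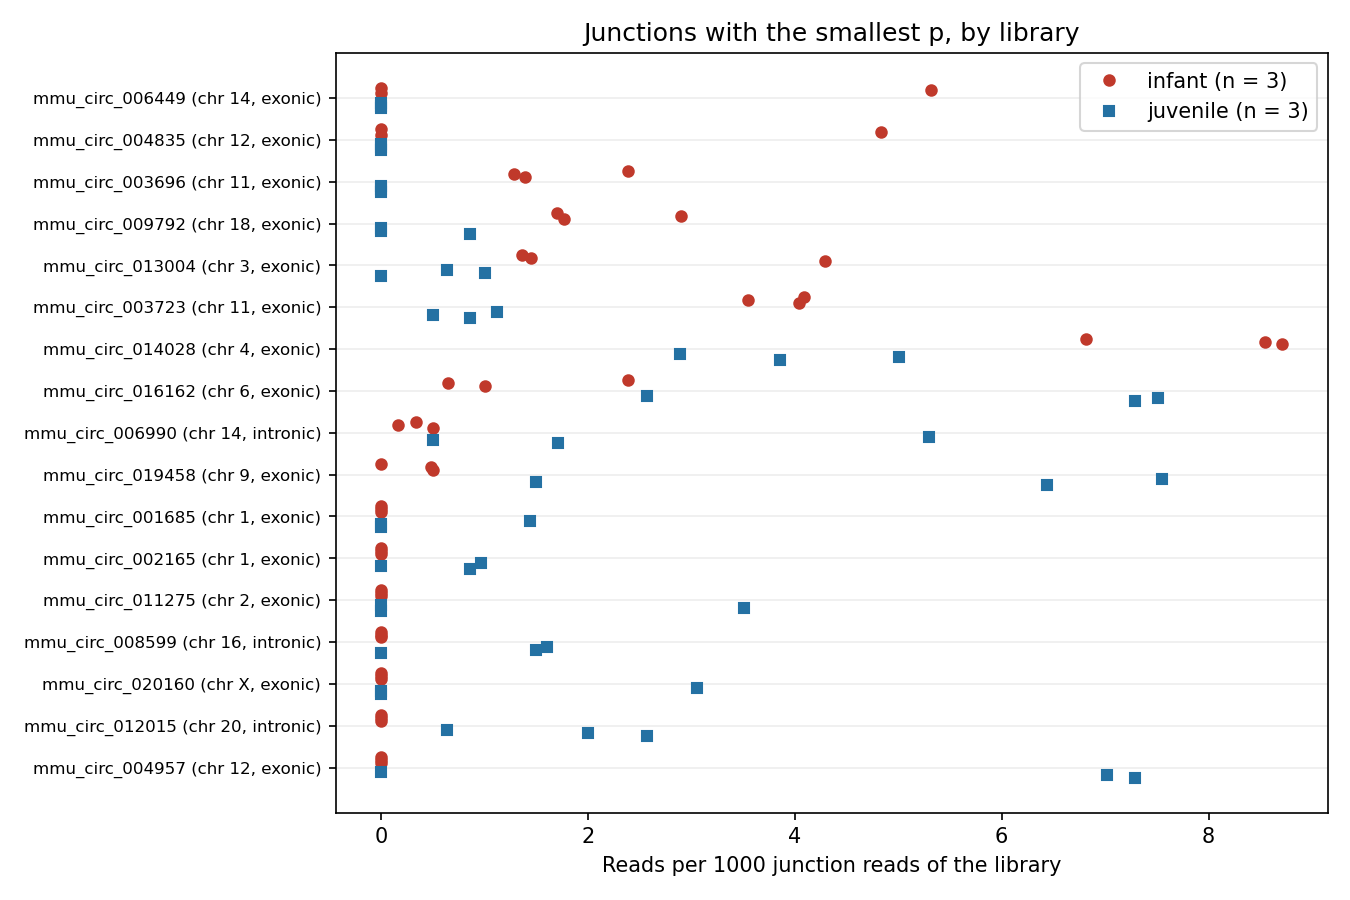
Reads per 1000 junction reads are plotted by library for the circRNAs with an identifier among the 12 junctions of smallest p in each direction (red circles, 3 infants; blue squares, 3 juveniles). The infants sit apart from the juveniles for mmu_circ_003723 and mmu_circ_014028, both higher in infants, while mmu_circ_004835 and mmu_circ_020160 rest on 1 library each.

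How far single libraries made these differences was counted. Of the 79 junctions higher in infants at an unadjusted p under 0.05, 11 were read in 1 of the 6 libraries, 26 in 2 and 42 in at least 3, and 41 did not overlap between groups, against 126 of all 832 in either direction (10.2% infant above, 4.93% juvenile above). In 70 of them all juvenile libraries were at 0, against 92 of the 832. Of the 34 lower junctions, 10 were read in 1 library, 9 in 2 and 15 in at least 3, and 10 did not overlap. All infants were at 0 in 20, and in no other of the 832. These counts follow from the choice by p and are a description. The in-depth libraries did not enter this choice. However, the in-depth infant may be the same animal as 1 of the infants that did, so it is no independent check. The 79 also include the 8 tested junctions of the chromosome 7 locus, which overlap and are not separate members. The in-depth libraries gave a higher share in the infant than in the old monkey for 58 of the 79 (73.4%). They did so for 4 of the 34 (11.8%), against 449 of all 832 (54%). These are 1 animal against 1, and were not tested.

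By class, exonic circRNAs carried all of the infant-high differences at an unadjusted p under 0.05, with 79 of 805 (9.81%) higher and 27 (3.35%) lower, and a median log2 fold change of 0.55. Circular intronic RNAs lay the other way, with 0 of 27 higher and 7 (25.9%) lower, and a median of -0.54. The 7 include chr14:9704409-9704719 and the circle ending at 9704720, which overlap and are not separate members. Both share an Ensembl transcript with mmu_circ_006990, also among the 7. In these circles, the 2.8-year-old gave 10 of 12, 6 of 6 and 33 of 38 juvenile reads. The number of exons made less difference. Medians were 0.19 for the 70 single-exon circRNAs, 0.65 for 287 with 2 exons, 0.59 for 326 with 3 or 4, 0.47 for 99 with 5 to 7 and 0.32 for 23 with 8 or more. Junctions under an Ensembl transcript had 43 of 600 (7.17%) higher, and those under assembled transcripts only 36 of 232 (15.5%). The 36 include the 8 tested junctions of the chromosome 7 locus, which overlap and are not separate members. The order was the opposite for separation. The infants lay above all juveniles in 69 of the 600 and 16 of the 232, against 10.2% of all junctions. The medians were 0.53 and 0.41. The 79 higher junctions had a median of 3 exons, 365 nt of spliced length and flanking introns of 5065 and 14935 bp, against 3 exons, 350 nt, 5432 and 14944 bp for all exonic junctions tested. For the 27 lower exonic ones these were 3 exons, 418 nt, 7012 and 21789 bp.

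The intronic share of each library showed the same order. Circular intronic RNAs took 3.95% of reads (95% Wilson interval 3.31 to 4.72), 3.24% (2.83 to 3.71) and 5.29% (4.82 to 5.81) in the infants in order of age. In juveniles they took 6.78% (6.18 to 7.43), 7.26% (6.21 to 8.49) and 8.45% (7.39 to 9.65). The groups did not overlap, nor did the intervals of the highest infant and the lowest juvenile. The means were 4.16 ± 1.04% and 7.5 ± 0.861% (SD, n = 3 each), a difference of -3.34 percentage points, with an exact two-sided permutation p of 0.1, the smallest that 3 against 3 can give, and an adjusted p of 0.367 over the 11 library summaries computed. The in-depth libraries had 3.16% (3.02 to 3.3) in the infant and 6.65% (6.39 to 6.91) in the 40.1-year-old. In the 18 older libraries the share ran from 3.74% to 23.5% with a median of 7.28%. No older library lay below all infants and 13 lay above all of them, with an exact permutation p of 0.155 for infant against older. Intervals cover counting error only, as PCR copies were not marked.

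**Figure D4:**
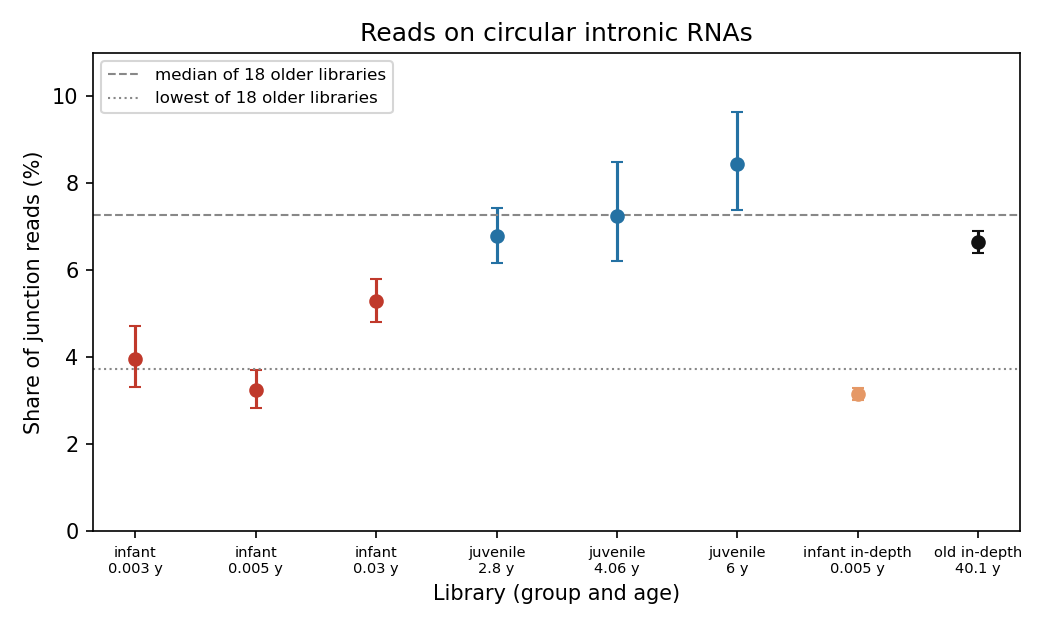
Points give the share of junction reads on circular intronic RNAs (%) in each infant, juvenile and in-depth library, with 95% Wilson intervals as bars, and lines mark the median and the lowest of the 18 older libraries. The infants lie between 3.24% and 5.29%, below the juveniles at 6.78% to 8.45%.

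Single intronic RNAs added to this in different ways. Besides mmu_circ_012015, mmu_circ_008599 and mmu_circ_006990, the circle at chr15:41837368-41837519 had 0, 10 and 2 reads in infants and 9, 8 and 10 in juveniles. Its neighbor ending 1 base earlier, at 41837518, had 5, 7 and 5 against 4, 5 and 6, which is no such order. Likewise the circle at chr14:9704409-9704719 had 0, 0 and 1 reads against 10, 1 and 1, and the one ending at 9704720 had 0 in every infant and 6 in the 2.8-year-old alone. The most read intronic RNA, mmu_circ_013955 at chr4:43067753-43067936, had 45, 0 and 112 reads in infants, 57, 21 and 37 in juveniles, and 0 in the in-depth infant library. Both libraries of an animal aged 0.005 years were thus at 0.

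Of the other summaries of the libraries, the single-exon share and the shorter flanking intron also did not overlap between groups. Reads on single-exon circRNAs took 5.83%, 6.95% and 6.92% in infants and 8.27%, 7.11% and 9.44% in juveniles (exact permutation p = 0.1). The median of the shorter flanking intron, weighted by reads, was 4546, 4530 and 4530 bp in infants and 5172, 5209 and 5127 bp in juveniles, a difference of -634 bp with an exact permutation p of 0.1. The value of 4530 bp is also the shorter flanking intron of mmu_circ_010973, the most read circRNA of the 6 libraries. The infant medians may therefore rest on the reads of 1 junction, which was not tested. In the older libraries the median ran from 3912 to 5618 bp, and 15 of them lay above all infants and 2 below. For total reads, means were 5685 ± 2533 in infants and 3518 ± 2352 in juveniles (SD, n = 3 each, exact permutation p = 0.3), and at an equal depth of 1996 reads the number of distinct junctions was 1210 ± 43.8 and 1131 ± 69.8 (exact permutation p = 0.2). Mean exon number per read was 3.61 ± 0.222 and 3.59 ± 0.116 (exact permutation p = 0.9). The lowest adjusted p of all 11 summaries was 0.367, and 3 against 3 cannot pass.

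The most read circRNAs, which are measured with the least counting error, did not pass the test. The top one, mmu_circ_010973, had 27, 62 and 113 reads against 52, 25 and 33, a log2 fold change of 0.32 (SE 0.40). For mmu_circ_016141, the reads were 31, 53 and 56 against 80, 12 and 29 (-0.03, SE 0.42). The junction of mmu_circ_009429, mmu_circ_009430 and mmu_circ_009432 at chr18:14771495-14785401 had 15, 31 and 55 reads against 80, 18 and 29, the juveniles being above the infants in reads per 1000 (-0.69, SE 0.45, adjusted p = 0.603, edgeR quasi-likelihood, Benjamini-Hochberg). Some highly read circRNAs alternated between high counts and 0 within a group. Thus mmu_circ_010916 had 59, 0 and 0 reads against 117, 0 and 26, and mmu_circ_019349 had 0, 47 and 82 against 55, 0 and 30.

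Of the 8 circRNAs for which the study designed RT-qPCR primers, 0 passed edgeR's test at the adjusted threshold, against 2 of 832 over all junctions. Of the 8, 1 (mmu_circ_006990, described above) had an unadjusted p under 0.05, as did 113 of all 832. The juveniles lay above the infants for mmu_circ_015060, with 6, 7 and 2 reads against 0, 4 and 0 (log2 fold change -2.34, adjusted p = 0.377, edgeR quasi-likelihood, Benjamini-Hochberg), and for mmu_circ_014269, with 5, 5 and 2 against 0, 1 and 3. The groups overlapped for the other 6, and over all junctions the juveniles lay above the infants in 4.93%. Of these, mmu_circ_006895 had 3, 9 and 6 reads in infants and 0, 3 and 2 in juveniles, mmu_circ_014509 had 4, 10 and 18 against 10, 6 and 3, and mmu_circ_017332 had 0, 0 and 6 against 2, 2 and 0.

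A gene symbol could be given for only 28 of the 832 junctions, on 19 genes, and of these 2 were higher in infants at an unadjusted p under 0.05 and 0 lower, against 9.5% higher and 4.09% lower over all junctions, with 0 passing the adjustment. The lower p belonged to MYL2, which encodes the regulatory myosin light chain of slow muscle fibers and of the heart ventricle. Its junction at chr11:111847211-111848921 (mmu_circ_003019, 2 exons, 181 nt) had 1, 10 and 13 reads in infants and 2, 0 and 0 in juveniles. The infants lay above the juveniles only narrowly, by 1 of 2933 reads in the youngest infant against 2 of 6227 in the 2.8-year-old. Both counts are under the 3 reads taken as detectable. The share in infants was 7.43-fold that of juveniles (95% counting interval 1.84 to 64.8), with a log2 fold change of 3.02 (SE 1.34, adjusted p = 0.331, edgeR quasi-likelihood, Benjamini-Hochberg). In the in-depth libraries it had 91 reads in the infant and 2 in the old monkey, and 6 of the 18 older libraries listed 16 reads. The other, of CCT3, a subunit of the chaperonin that folds actin and tubulin, had 2, 1 and 7 reads against 0 each (log2 fold change 4.54, adjusted p = 0.331 by the same test).

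Among other host genes with symbols, the reads summed over all junctions of LARP4, ST7L and RERE overlapped between the groups. Those of CSE1L, with 1, 3 and 9 reads in infants and 1, 0 and 0 in juveniles, did not overlap as shares. That separation rests on 1 read in the youngest infant and 1 in the 2.8-year-old, both under the 3 reads taken as detectable. Over all 946 loci, the infants lay above all juveniles in 8.35%. LARP4, an RNA-binding protein that protects mRNA tails, had 8, 8 and 16 reads over 23 junctions in infants and 20, 3 and 4 in juveniles. ST7L had 10, 16 and 11 against 14, 1 and 6, and RERE, a transcriptional corepressor, 7, 21 and 7 against 4, 1 and 5. Of the muscle genes looked for, MYBPC1, TNNC2, CAPZB and MYL2 of 37 filament and Z-disc genes and STAC3 of 20 excitation genes had a paired transcript, and only MYL2 had a tested junction. STAC3, a partner of the calcium channel of the muscle membrane, had 1, 1 and 0 reads in infants and 5, 1 and 0 in juveniles. No gene of the lists for splicing factors, growth, fibroblasts, endothelium, immune cells, fat, nerve or red cells had a paired transcript. Of 9 muscle fiber markers, only MYBPC1, the slow form of myosin-binding protein C, had one, with 2 reads in the 2.8-year-old, 0 in the other 5 libraries and 13 in each in-depth library. The makeup of the muscle by cell type could therefore not be checked against its markers, and its part in these differences was not tested.

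Against the 18 older libraries, 38 of 832 junctions (4.57%) were higher and 3 (0.361%) lower in infants, while juveniles had 2 (0.24%) higher and 0 lower (edgeR quasi-likelihood, Benjamini-Hochberg). At an unadjusted p under 0.05, infants had 114 (13.7%) higher and 23 (2.76%) lower, and juveniles 28 (3.37%) and 22 (2.64%). The 832 junctions were chosen by their reads in infants and juveniles, which favors junctions that older libraries lack. With 24 or more reads over all 24 libraries required instead, a filter added after the data had been seen, 642 junctions were tested, and infants had 0 higher and 0 lower, with 24 and 35 at an unadjusted p under 0.05. That filter removed junctions with few or no older reads, among them the tested chromosome 7 junctions, with 6 to 23 reads. For those it removed, the 0 is no retest. Of the 38, 8 were the tested junctions of the chromosome 7 locus. Those already named include mmu_circ_014028 (log2 fold change 1.90, adjusted p = 0.0439) and the junction of MYL2 (2.55, adjusted p = 0.0498), by edgeR's quasi-likelihood test and Benjamini-Hochberg adjustment. The 3 lower were the intronic mmu_circ_008599 (-5.73) and mmu_circ_012015 (-5.05) and the exonic mmu_circ_002165 (-5.61), which had 0 reads in every infant and 126, 78 and 109 in the older libraries. Infant libraries enter both comparisons, so the calls against the older animals and those against juveniles do not count as separate evidence.

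Junctions under assembled transcripts were more often missing from the in-depth infant library than those under Ensembl transcripts, by rates that were not tested. Of the junctions with 5 or more reads in the 1.8-day-old library, 2 of 178 (1.12%) under an Ensembl transcript and 5 of 65 (7.69%) under an assembled one were not listed in the in-depth infant library. These were 3.12% and 14.8% for the youngest infant, 4.11% and 7.5% for the 11-day-old, and 4.09% and 21.9%, 4.35% and 7.14%, and 4.08% and 5.88% for the juveniles in order of age, whose junctions may differ from those of an infant. All junctions of the chromosome 7 locus and chr12:90754593-90757353 were listed under assembled transcripts only, and whether a 0 there reflects absence or the listing was not tested. Of 946 loci tested, 755 had an Ensembl transcript.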

How the data were processed

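For each library, the authors deposited a table of circRNAs, each with its count of reads across the back-splice junction, as whole numbers that were not normalized. Per the study's methods, reads trimmed with cutadapt were aligned to rheMac2 with TopHat2 2.0.14 and Bowtie2 2.2.4, transcripts were assembled with Cufflinks 2.2.1 in each library, and circRNAs were called with CIRCexplorer. Here a junction was defined by chromosome, start, end and strand, and its counts were summed over exon structures, with 0 where it was not listed. Coordinates count from 1. A locus is a chain of overlapping junctions on 1 strand over all 26 libraries. The members, gene lists and tests were chosen with earlier results of these data known.

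Junctions and loci with 6 or more reads over the 6 libraries were tested with edgeR 4.0.16 in R 4.3.3 (TMM, robust quasi-likelihood test, 3 libraries a group, no covariates), with Benjamini-Hochberg adjustment at 0.05. Comparisons with the older libraries used 1 fit over 24 libraries. In the fits of infants against juveniles, the median prior degrees of freedom were infinite. Most of these tests thus used a spread pooled over junctions or loci, and not that of each among the animals. DESeq2 1.42.0 was an alternative. The SE of an edgeR log2 fold change was its absolute value divided by the square root of the test's F. It is thus derived from the test and was not fitted separately. The median shift was subtracted where stated. Library summaries were compared by exact two-sided permutation over 20 splits (1330 against the older libraries) with Python 3.11.15, numpy 2.4.6, pandas 2.3.3 and scipy 1.17.1. Figures were drawn with matplotlib 3.10.9. Folds against a group at 0 used 3 reads over the group. The junctions named were the 12 of smallest p in each direction, the 10 most read and the 8 with RT-qPCR primers, and of loci the 8 of smallest p in each direction. Junctions of the intronic class, gene symbols and the listing counts were named outside this rule, after their values had been seen. Identifiers (mmu_circ) and the pairing of 126 transcripts with gene symbols were taken from the study by coordinates and transcript, and gave symbols for 28 tested junctions. The fits were also run on simulated counts that all shared the fitted common dispersion. Such counts do not cover circRNAs that alternate between high counts and 0 within a group. The 2 in-depth libraries entered no fit.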

Additional observations from a re-analysis of the deposited data

Results flagged for a closer look

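The features called in the comparison were looked up in the in-depth infant library, which entered no fit. That library may come from an animal of the comparison, so it is no independent sample. The chromosome 7 locus had 527 reads there and 0 in the in-depth old library, the same order as in the comparison. The chr12:90754593-90757353 junction (mmu_circ_004957 and mmu_circ_004958), which had 0 reads in all 3 infant libraries, had 252 reads there. The chr9:69124976-69125878 junction (mmu_circ_019458) had 16 reads there, against 86 in the in-depth old library, which held fewer junction reads in all (35205 against 60704).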

How the results depend on the processing

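Over 56 named junctions and loci, 881 alternative values were computed, of which 807 kept their direction and their side of the threshold, 20 newly passed it, 21 no longer passed it and 33 changed sign. The 2 junctions lower in infants were 1 with total reads as library size, 0 without scaling, 0 with DESeq2, 1 without robust dispersion, 0 without a filter, 0 with 12 or more reads, 1 with reads in at least 3 libraries, 0 with all 24 libraries fitted, 0 with exon structures kept apart and 0 over Ensembl-listed junctions, and 1 to 4 when each library was left out in turn. Junctions higher in infants numbered 0 to 4 when each was left out. The single locus higher in infants became 2 without robust dispersion, 2 without a filter, 0 with 12 or more reads and 0 over Ensembl-listed loci, with 1 to 4 when each library was left out. The single lower locus became 2 with total reads, 0 without scaling, 0 with DESeq2, 0 with 12 or more reads, 0 with reads in 3 libraries, 0 with all 24 libraries and 2 with loci chained over the 6 libraries, with 1 to 3 when each was left out. The causes were not tested. Against older libraries, the 38 higher junctions were 21 with total reads, 52 without the old libraries, 0 with 24 or more reads over the 24 libraries and 19 to 33 when each library was left out. The filter of 24 reads removed the 8 tested chromosome 7 junctions and so did not retest them. The 3 lower were 1 with total reads, 5 without the old libraries, 0 with 24 or more reads and 2 to 3 when each was left out. For juveniles, the 2 higher were 1 with total reads, 4 without the old libraries, 0 with 24 or more reads and 1 to 2 when each was left out.

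The chromosome 7 locus remained called in 14 of 15 alternatives, the exception being 12 or more reads. The chr12:90754593-90757353 junction was called in 8 of 15 and the chr9:69124976-69125878 junction in 9 of 16. Sign changes among named junctions were all of values that passed no test. With total reads as library size, log2 fold changes were -0.06 for mmu_circ_010973, -0.04 for mmu_circ_009828, -0.26 for mmu_circ_019349, -0.09 for mmu_circ_015464 and -0.11 for mmu_circ_014509. Without scaling they were 0.45 for mmu_circ_013955, 0.21 for mmu_circ_016141, 0.54 for mmu_circ_017332 and 0.35 for mmu_circ_004916. Without a filter they were 0.09 for mmu_circ_013955, 0.03 for mmu_circ_016141 and 0.04 for mmu_circ_017332. With 12 or more reads mmu_circ_019349 was at -0.09, and with reads in at least 3 libraries mmu_circ_017332 was at 0.02. Over the fits that left out 1 library, log2 fold changes ran from -0.03 to 0.58 for mmu_circ_010973, -0.70 to 0.57 for mmu_circ_013955, -0.33 to 0.32 for mmu_circ_016141, -0.10 to 0.55 for mmu_circ_009828, -0.51 to 0.74 for mmu_circ_019349, -8.47 to 0.26 for mmu_circ_010916, -0.22 to 0.64 for mmu_circ_015464, -3.67 to 0.73 for mmu_circ_017332, -0.82 to 0.41 for mmu_circ_004916 and -0.13 to 0.53 for mmu_circ_014509. Mean exon number per read differed by 0.0209 and by -0.0843 to 0.137 when each library was left out, and median spliced length was 11 nt longer in infants than in the 18 older libraries, against 25.7 nt shorter than in juveniles. No paired analysis was possible because the labels give no replicate numbers that tie infant to juvenile animals. With 3 animals a group and 1996 to 7918 junction reads, differences in circRNAs of few reads could not be detected.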
